A study of Mus musculus with 6 samples.

Results

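Fatty acid oxidation and PPAR target genes were followed through splenocytes of mice on the diet labelled MCDHFD and of mice on ND. The set holds 33 of the 32285 genes in the count tables, taken by gene symbol, each matching 1 gene ID. They comprise the enzymes and carriers that bring fatty acids into mitochondria and oxidise them, 3 peroxisomal enzymes, 2 acyl-CoA thioesterases, the 3 PPAR receptors and 4 targets or fuel switches. The questions were which of these genes rose in every cell class and which rose in erythroid cells alone.

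The mice were wild-type C57BL/6, 6 weeks old at the start, and had either diet for 7 weeks. The MCDHFD animals are the study's MASH model (a fatty, inflamed liver disease), and the study as a whole concerns liver fibrosis and CD8 T cells of the spleen. Whole spleens were made into cell suspensions with no sort, and 3 libraries per diet were sequenced by droplet-based 3' single-cell RNA-seq, which counts unique molecules (UMIs) per gene and cell barcode. The sample titles shorten MCDHFD to MCD. The labels do not say whether a library is 1 animal, so p-values measure the spread between libraries, which may be technical.

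In fatty acid oxidation a fatty acid is first joined to coenzyme A, passed through the mitochondrial membranes as a carnitine ester, and then shortened step by step, with its electrons handed to the respiratory chain by the electron transfer flavoproteins. PPARs are nuclear receptors that bind fatty acids and, paired with a retinoid X receptor, raise many of the genes of this pathway. In liver, PPARalpha is known for raising Acot1, Cpt1a and Pdk4 when fatty acids are abundant or food is withheld.

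Single cells were placed in 8 classes by marker rules on UMIs, after a minimum of 1000 UMIs and at most 10% mitochondrial UMIs. B cells had at least 2 Cd79a UMIs, CD8 and CD4 T cells had Cd3e with Cd8b1 or with Cd4, and NK cells had Ncr1 without Cd3e. Monocytes and macrophages (mono/mac) had Csf1r, neutrophils Csf3r and at least 5 S100a8 UMIs, dendritic cells (DC) Flt3 and at least 3 H2-Aa UMIs, and erythroid cells Klf1. The kept cells numbered 6625, 6594 and 3535 in MCDHFD replicates 1 to 3 and 6548, 3278 and 4962 in ND replicates 1 to 3, from total UMIs of 21259837 to 62238012 per library. Of the kept cells 5.48% to 13.8% met more than 1 rule and counted in each class. Among DC, 54 of 160, 77 of 238 and 28 of 92 met the DC rule alone in MCDHFD replicates 1 to 3. In ND replicates 1 to 3 it was 48 of 152, 40 of 109 and 39 of 128. Per library 43 to 107 DC also met the B cell rule. Mono/mac cells met their rule alone in 468 of 775, 482 of 847 and 247 of 458 cases with MCDHFD. With ND it was 209 of 397, 133 of 262 and 199 of 316. The classes are thus not separate sets of cells. Any pair of libraries shared at most 18 kept barcodes. At any count the unfiltered lists shared more, and unevenly. Of the 6625 kept barcodes of MCDHFD replicate 1, the list of MCDHFD replicate 2 held 6599, that of ND replicate 3 6624 and that of ND replicate 1 2008. The cause was not tested, and the models have no term for it. MCDHFD replicate 3 and ND replicate 2 stood apart: their barcode lists were deposited filtered and by an earlier Cell Ranger version, while the other 4 lists were unfiltered. List form was therefore a term in each test, beside diet. Between libraries of 1 diet, B cell counts differed by a chi-square per degree of freedom of 7.80 for MCDHFD replicates 1 and 2, 32.0 for ND replicates 1 and 3, and 231 to 272 across list forms.

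The classes were checked against markers that the rules did not use. All 3 B cell, 3 NK cell, 5 mono/mac and 4 neutrophil markers had their highest mean level in their own class, as did 2 of 3 for CD8 T cells, 2 of 3 for CD4 T cells and 4 of 5 for DC. For erythroid cells 4 of 7 did, namely Gata1, Tfrc, Epor and Slc4a1. Haemoglobin genes Hba-a1 and Hbb-bt and the haem synthesis gene Alas2 averaged higher in mono/mac cells. The Klf1 rule thus took cells with Gata1, Epor and the stem cell factor receptor Kit, and with Hba-a1 at 390.2 to 1512 CPM (UMIs per 1000000 UMIs of the library in that class) with MCDHFD and 497.2 to 2020 CPM with ND. Erythroid cells were few and deep: 34, 25 and 66 cells with MCDHFD and 67, 37 and 43 with ND, with median UMIs of 18088 to 63418. None of the erythroid marker and stage genes tested passed the test by diet.

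The promoters of the 4 genes that rose in at least 1 class are shown because a PPAR pair is known to bind a direct repeat of the half-site AGGTCA with 1 base between. Each line gives the 200 bases from 250 to 51 before the RefSeq start (GRCm38.p6), 5' to 3' on the gene's own strand, with a half-site on either strand in capitals. The Acot1 line is chr12:84009252-84009451 on the plus strand, that of Cpt1a chr19:3323051-3323250 on the plus strand, that of Hadh chr3:131272152-131272351 on the minus strand and that of Slc25a20 chr9:108661886-108662085 on the plus strand.
Acot1: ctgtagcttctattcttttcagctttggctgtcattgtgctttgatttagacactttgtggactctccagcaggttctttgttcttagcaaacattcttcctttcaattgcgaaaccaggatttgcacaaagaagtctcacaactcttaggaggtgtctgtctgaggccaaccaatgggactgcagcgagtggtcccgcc
Cpt1a: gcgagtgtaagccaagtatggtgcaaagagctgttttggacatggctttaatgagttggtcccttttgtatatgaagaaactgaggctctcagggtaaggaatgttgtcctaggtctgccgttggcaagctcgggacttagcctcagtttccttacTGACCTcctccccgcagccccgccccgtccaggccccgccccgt
Hadh: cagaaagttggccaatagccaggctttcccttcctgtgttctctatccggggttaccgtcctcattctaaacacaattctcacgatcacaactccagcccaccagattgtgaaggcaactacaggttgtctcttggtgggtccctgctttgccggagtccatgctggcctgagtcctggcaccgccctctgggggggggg
Slc25a20: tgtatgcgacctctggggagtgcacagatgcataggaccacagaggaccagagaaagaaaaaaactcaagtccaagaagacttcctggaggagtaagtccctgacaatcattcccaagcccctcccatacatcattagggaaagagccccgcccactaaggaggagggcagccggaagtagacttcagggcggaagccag
Among these 4 windows, only that of Cpt1a holds the half-site, once, read as TGACCT on the strand shown. RefSeq windows were found for 28 of the 33 genes, 31 windows in all, and 6 of the 31 (19.4%) held the half-site within 250 bases before the start, against 14.02% of all 32851 windows. The full repeat AGGTCANAGGTCA was in no member window and in 11 of all windows. At least 10 of its 12 fixed letters matched in 2 member windows, those of Echs1 and Etfa, and in 3.24% of all windows. These are matches of letters in a short window and say nothing about binding here or farther away.

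Under the MCDHFD diet 5 of the 33 genes passed the test in at least 1 class, 4 of them higher and 1 lower. Cpt1a, the carnitine palmitoyltransferase that commits long-chain fatty acids to mitochondrial import, rose in 5 classes, by 1.74-fold in NK cells to 2.17-fold in CD8 T cells, and had a positive estimate in all 8. Slc25a20, the carrier that moves acylcarnitines across the inner membrane, rose in B cells and DC. Acot1, a cytosolic acyl-CoA thioesterase, rose in erythroid cells, mono/mac cells, neutrophils and B cells, and Hadh, the short-chain hydroxyacyl-CoA dehydrogenase, rose in erythroid cells. No gene passed in all 8 classes, and none met the test for erythroid cells alone. Both counts of 0 come from edgeR. DESeq2 also gave 0 and 0, with no adjusted p for 22 of the 26 members in NK cells. At an unadjusted p under 0.05 in edgeR, 1 gene, Cpt1a, was higher in all 8 classes, and 0 genes were higher in erythroid cells with all 7 differences.

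**Figure D1:**
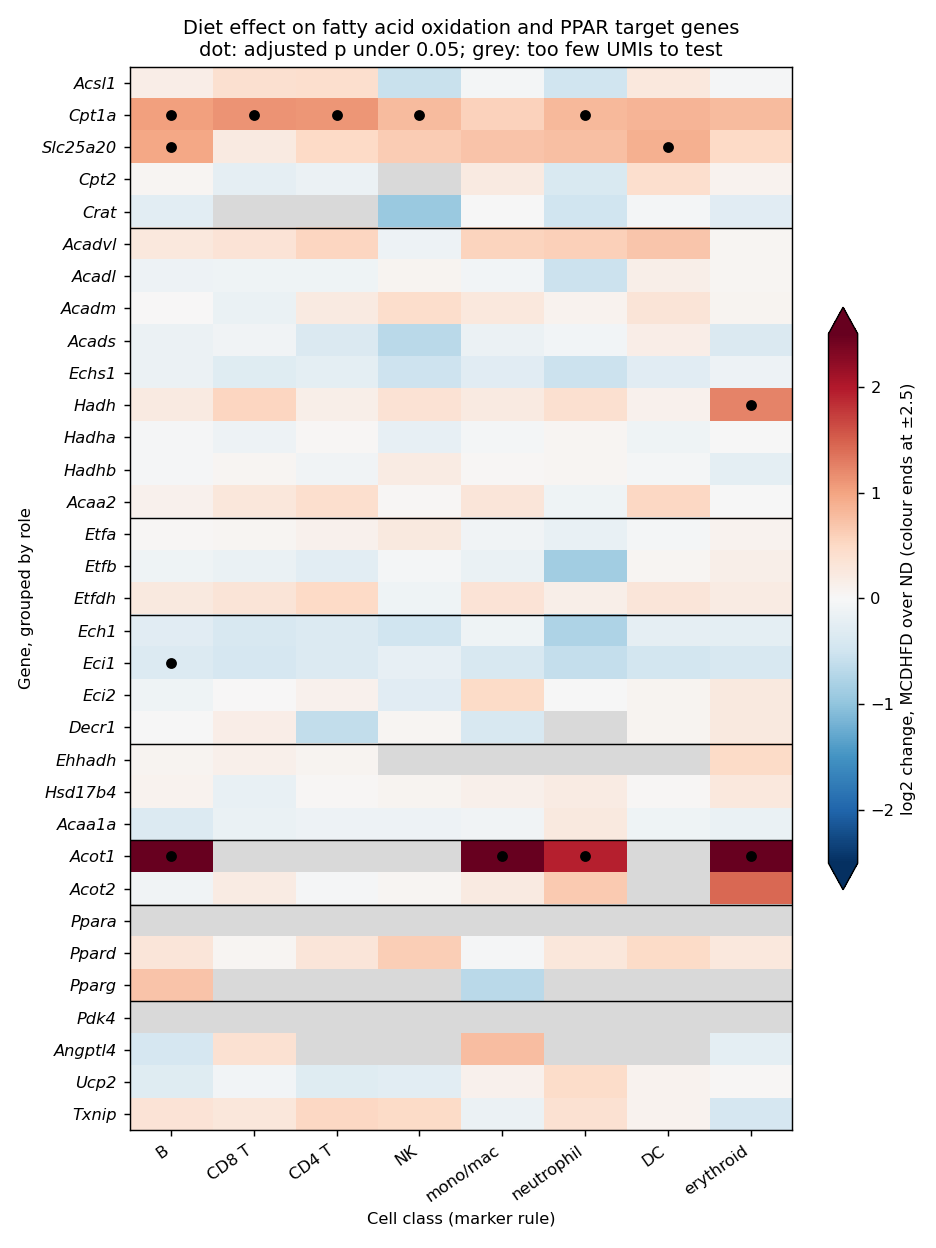
Log2 change of the 33 genes (rows, grouped by role) in the 8 cell classes (columns), MCDHFD over ND, with red higher and blue lower with MCDHFD. Dots mark the 13 of 225 tested pairs of gene and class with adjusted p under 0.05, grey marks pairs with too few UMIs to test, and 5 dots stand in the Cpt1a row.

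Counts were summed per library and class and tested with edgeR's quasi-likelihood test on diet and list form, with Benjamini-Hochberg adjustment over all genes of a class and a threshold of 0.05. Of the 33 genes 31 had enough UMIs for a test in some class and 23 in all 8, and 225 pairs of gene and class were tested. Of these, 12 were higher and 1 lower. In B cells 3 of 31 were higher and 1 lower, beside 2.33% of all genes higher and 4.04% lower. In neutrophils 2 of 27 were higher and none lower (3.39% and 4.92% of all genes), and in CD4 T cells 1 of 27 was higher (1.05% and 2.3%). In CD8 T cells 1 of 28 was higher (0.477% and 0.613%), in NK cells 1 of 26 (1.75% and 2.6%) and in mono/mac cells 1 of 30 (0.314% and 0.807%). In DC 1 of 26 was higher (0.899% and 0.858%) and in erythroid cells 2 of 30 (0.0979% and 0.0435%). The median log2 change of the tested members was between -0.02 and 0.10 in every class, and that of all genes between -0.01 and 0.05. With diet alone in the model, Acot1 in erythroid cells was the only member called, in a fit that called 0.0109% of all erythroid genes. That model called 0.00901% of all genes in CD8 T cells, 0.119% in neutrophils and 0 in each other class.

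Among the genes of activation and import, Cpt1a in CD8 T cells had 51.1, 46.0 and 43.3 CPM in MCDHFD replicates 1 to 3, against 17.7, 19.9 and 24.2 CPM in ND replicates 1 to 3. In CD4 T cells, where its p was smallest, it had 62.5, 51.1 and 51.4 CPM with MCDHFD and 26.7, 22.3 and 27.2 CPM with ND. In B cells it had 63.3, 59.1 and 55.5 CPM with MCDHFD and 24.4, 27.3 and 32.5 CPM with ND. Each MCDHFD library lay above each ND library in these 3 classes. Cpt1a rose by log2 1.10 ± 0.14 (SE) in CD4 T cells, 1.11 ± 0.13 in CD8 T cells and 1.02 ± 0.10 in B cells (edgeR, Benjamini-Hochberg adjusted p = 0.00058, 0.0013 and 0.0018). Between the 2 libraries with filtered lists the differences were 1.21, 1.12 and 1.02, and among the 4 with unfiltered lists 1.07, 1.21 and 1.10. With diet alone in the model Cpt1a was called in no class, at adjusted p of 0.204 or more (edgeR).

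Cpt1a also rose in NK cells, by 0.79 ± 0.21, and in neutrophils, by 0.80 ± 0.21 (edgeR, Benjamini-Hochberg adjusted p = 0.037 and 0.047). In NK cells it had 80.3, 88.3 and 54.2 CPM with MCDHFD and 37.6, 24.5 and 57.2 CPM with ND, so that MCDHFD replicate 3, with 10 UMIs, fell below ND replicate 3. In neutrophils it had 59.5, 64.4 and 62.0 CPM with MCDHFD and 27.6, 25.2 and 43.0 CPM with ND, with no overlap. The neutrophil call ended without any 1 of the 6 libraries, at adjusted p of 0.0693 to 0.199 (edgeR), and the NK call ended without MCDHFD replicate 1 (0.146), MCDHFD replicate 2 (0.258) or ND replicate 1 (0.267), and in cells that met exactly 1 rule (0.0585).

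In the 3 other classes Cpt1a did not pass. In mono/mac cells it had 93.8, 81.3 and 64.6 CPM with MCDHFD and 50.9, 48.5 and 58.0 CPM with ND. In DC it had 47.1, 46.3 and 35.1 CPM with MCDHFD and 18.6, 26.8 and 26.8 CPM with ND. In erythroid cells it had 53.3, 46.1 and 59.0 CPM with MCDHFD and 20.5, 39.9 and 31.0 CPM with ND. The libraries of the diets did not overlap in these 3 classes either. The estimates were 0.58 ± 0.13, 0.84 ± 0.21 and 0.80 ± 0.21 in mono/mac cells, DC and erythroid cells (edgeR, Benjamini-Hochberg adjusted p = 0.069, 0.063 and 0.27). Cpt1a thus had MCDHFD libraries wholly above ND libraries in 7 of 8 classes. Of all genes tested 6.18% did so in B cells, 5.77% in CD8 T cells, 4.61% in CD4 T cells, 8.89% in NK cells, 4.87% in mono/mac cells, 14.2% in neutrophils, 6.24% in DC and 4.74% in erythroid cells. Set against the other classes, the erythroid diet effect on Cpt1a differed by -0.34 to 0.16, none past the test (edgeR, smallest adjusted p = 0.75), and these misses do not show that the effects are equal. With no filter on low counts, Cpt1a passed in all 8 classes.

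**Figure D2:**
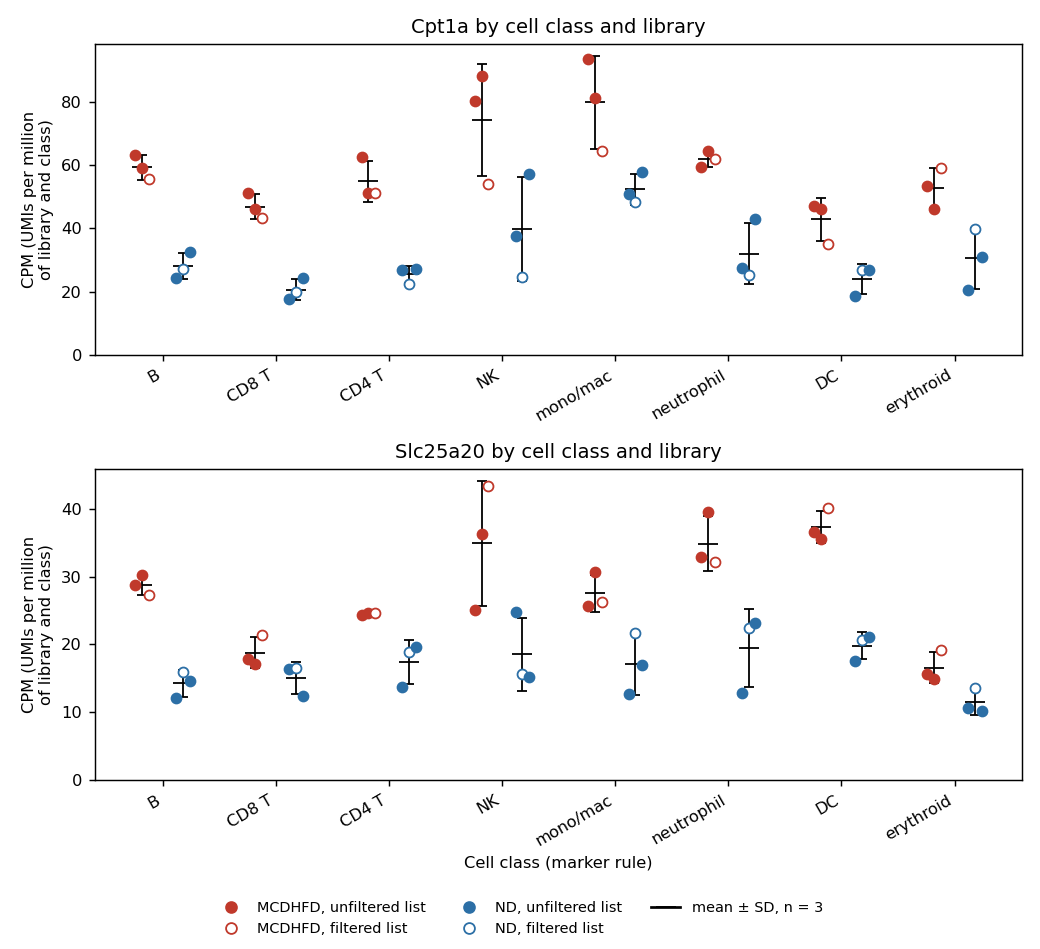
CPM of Cpt1a (top) and Slc25a20 (bottom) in each library by cell class, MCDHFD left of ND, with open points for the libraries with filtered barcode lists and bars for mean ± SD (n = 3). In Cpt1a only NK cells show a MCDHFD library (54.2 CPM) below an ND library (57.2 CPM), and in Slc25a20 no class does.

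Slc25a20 followed Cpt1a in direction. In B cells it had 28.7, 30.2 and 27.2 CPM with MCDHFD and 12.1, 16.0 and 14.6 CPM with ND. In DC it had 36.6, 35.6 and 40.1 CPM with MCDHFD and 17.6, 20.7 and 21.2 CPM with ND. In erythroid cells it had 15.6, 15.0 and 19.2 CPM with MCDHFD and 10.6, 13.6 and 10.2 CPM with ND. The groups did not overlap in these or in the other 5 classes, though in NK cells the nearest libraries stood at 25.1 CPM with MCDHFD and 24.8 CPM with ND. It rose by 0.97 ± 0.10 in B cells and 0.88 ± 0.21 in DC (edgeR, Benjamini-Hochberg adjusted p = 0.0023 and 0.043), while the other 6 estimates ran from 0.22 in CD8 T cells to 0.76 in neutrophils and did not pass. The DC call ended in DESeq2 (adjusted p = 0.299), in cells that met exactly 1 class rule (0.411) and without any 1 library except ND replicate 3. For Slc25a20 the erythroid effect minus that of each other class lay between -0.55 and 0.24, none past the test (edgeR, smallest adjusted p = 0.72).

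The other import genes gave no call. Acsl1, which joins long-chain fatty acids to coenzyme A, was at its highest in neutrophils, with 90.8 to 125 CPM with MCDHFD and 129.7 to 153 CPM with ND, a log2 change of -0.50 ± 0.16 (edgeR, Benjamini-Hochberg adjusted p = 0.086). Cpt2, which re-forms acyl-CoA inside the mitochondrion, had estimates of -0.39 to 0.41 in 7 classes. Crat, which handles short acylcarnitines, had -0.92 to -0.02 in 6.

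Barcodes with fewer than 100 UMIs were read as free RNA, and only the 4 unfiltered lists held them. Barcodes of cells kept in another library were not removed from them. Both MCDHFD libraries lay above both ND libraries there in 15 of the 31 members with at least 10 UMIs, beside 46% of all such genes. In 4 of them the mean was also at least 2-fold higher, beside 8.25% of all such genes, and Cpt1a and Slc25a20 were among the 4. Cpt1a made up 49.98 and 44.9 CPM of those UMIs in MCDHFD replicates 1 and 2, against 17.7 and 22.0 CPM in ND replicates 1 and 3. Slc25a20 made up 20.2 and 18.5 CPM with MCDHFD and 8.68 and 7.03 CPM with ND. The levels of Cpt1a inside classes lay near or above those of free RNA. Slc25a20 lay below its free RNA level in MCDHFD replicates 1 and 2 in erythroid cells (15.6 and 15.0 CPM) and CD8 T cells (17.8 and 17.1 CPM). In ND replicates 1 and 3 it lay above that level in both classes. The part of free RNA in the class values of either gene was not tested. T cell markers moved with diet in B cells: the summed level of the 5 CD8 T markers was 88.2 to 336 CPM with MCDHFD and 52.3 to 171 CPM with ND, and all 5 were higher by the test. In B cells that met no other rule Cpt1a had 64.0, 58.8 and 57.2 CPM with MCDHFD and 24.1, 26.3 and 32.5 CPM with ND, a log2 change of 1.11. The part of T cell RNA in the B cell values was not tested.

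Of the 9 genes of the mitochondrial spiral, 1 was called, Hadh in erythroid cells. There it had 64.6, 68.6 and 71.6 CPM in MCDHFD replicates 1 to 3, against 27.1, 32.1 and 25.7 CPM in ND replicates 1 to 3, from 328 UMIs with MCDHFD and 170 UMIs with ND in all. Every MCDHFD library lay well above every ND library. Hadh rose by log2 1.23 ± 0.18 (edgeR, Benjamini-Hochberg adjusted p = 0.0059), with 1.34 among the unfiltered libraries and 1.16 between the filtered ones. The call ended with diet alone in the model (0.169), among the 4 unfiltered libraries (0.0988) and without MCDHFD replicate 3 (0.0783), ND replicate 1 (0.0735) or ND replicate 2 (0.103). With each erythroid cell thinned to 10000 UMIs, the expected share of cells with Hadh was 44.3%, 42.7% and 51.0% with MCDHFD and 21.5%, 27.6% and 22.5% with ND. Unthinned, Hadh was seen in 79.4%, 56.0% and 66.7% with MCDHFD and 49.3%, 56.8% and 58.1% with ND. The thinned shares left out 37 of 125 erythroid cells with MCDHFD and 35 of 147 with ND as too shallow.

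Hadh estimates in the 7 other classes ran from 0.11 in DC to 0.54 in CD8 T cells, none past the test. The erythroid effect minus that of another class was 0.68 ± 0.25 against CD8 T cells at the least and 1.19 ± 0.34 against DC at the most. All 7 differences were above 0 and none passed (edgeR, Benjamini-Hochberg adjusted p = 0.10 against B cells to 0.66 against CD8 T cells), so a rise in erythroid cells alone was not shown for Hadh.

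The remaining 8 spiral genes gave no call in any of the 8 classes. Acadvl, Acadl, Acadm and Acads, the dehydrogenases for very long, long, medium and short chains, had estimates of -0.67 to 0.69. Acadvl came nearest, at 0.54 ± 0.16 in CD4 T cells (edgeR, adjusted p = 0.094), and it had 7 of 8 estimates above 0. The hydratase Echs1 was below 0 in all 8 classes, from -0.53 to -0.13, with no call. Hadha and Hadhb, the subunits of the trifunctional protein, lay between -0.25 and 0.21, and the thiolase Acaa2 between -0.11 and 0.52.

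Etfa, Etfb and Etfdh, which pass the electrons on, had estimates of -0.88 to 0.49 and no call. Of the enzymes for unsaturated chains, Eci1, an enoyl-CoA isomerase, fell in B cells, with 26.8, 28.0 and 34.0 CPM with MCDHFD and 33.5, 39.9 and 34.9 CPM with ND. MCDHFD replicate 3 lay within the ND range. The change was -0.35 ± 0.08 (edgeR, Benjamini-Hochberg adjusted p = 0.038), and it missed in cells that met exactly 1 class rule (0.0572) and without any 1 of 4 libraries (0.146 to 0.215). In erythroid cells Eci1 had 44.7, 54.9 and 61.8 CPM with MCDHFD and 75.4, 59.4 and 68.6 CPM with ND, an estimate of -0.39 ± 0.20 that did not pass (adjusted p = 0.74, edgeR). Its estimates were below 0 in all 8 classes, as were those of Ech1, from -0.76 to -0.10. Eci2 and Decr1 ran from -0.62 to 0.49, and the peroxisomal enzymes Ehhadh, Hsd17b4 and Acaa1a from -0.33 to 0.47, all with no call.

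Acot1 showed the largest difference of the set, and it was in erythroid cells. Acot1 had 112, 29 and 135 UMIs in erythroid cells of MCDHFD replicates 1 to 3, against 0, 1 and 0 UMIs in ND replicates 1 to 3. As levels these were 60.3, 36.2 and 63.2 CPM with MCDHFD and 0, 0.973 and 0 CPM with ND. Every MCDHFD library lay far above every ND library. The ratio of the summed counts was 357, with a 95% interval of 63.6 to 14167 that covers counting error only, as do the other intervals and limits here. The fitted log2 change was 7.77 ± 0.53 (edgeR, Benjamini-Hochberg adjusted p = 3.3e-06); with 1 UMI in ND its size depends on the prior count. It passed in all 15 alternatives run, at 7.19 to 9.5998.

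In erythroid cells Acot1 UMIs were found in 18 of 34, 8 of 25 and 33 of 66 cells with MCDHFD, against 0 of 67, 1 of 37 and 0 of 43 cells with ND. At this depth a count of 0 allows a share of cells with an Acot1 UMI of up to 4.48% and 6.98% in ND replicates 1 and 3, which does not limit the share of cells expressing the gene. The highest count in 1 cell was 18, 13 and 12 UMIs with MCDHFD and 1 UMI with ND. Thinned to 10000 UMIs, the expected shares were 35.2%, 21.0% and 38.5% with MCDHFD and 0%, 1.71% and 0% with ND. In NK cells, which had median UMIs of 4415 to 5514 with MCDHFD, Acot1 UMIs were in 0 of 210, 0 of 253 and 1 of 37 cells with MCDHFD and in none with ND. Cells that met only the erythroid rule numbered 22, 14 and 41 with MCDHFD and 42, 26 and 22 with ND, and in them Acot1 had 65.1, 27.6 and 66.4 CPM with MCDHFD and 0, 1.15 and 0 CPM with ND.

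**Figure D3:**
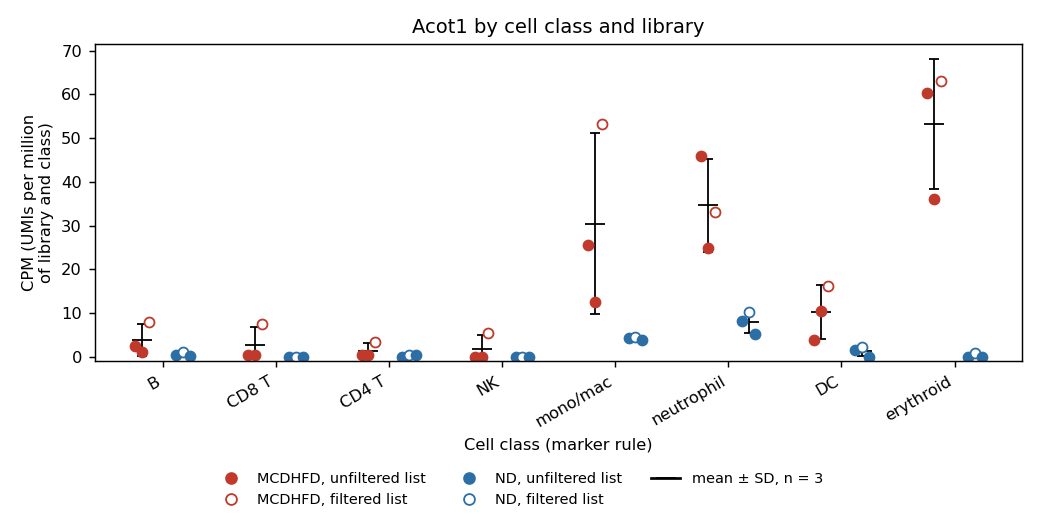
CPM of Acot1 in each library by cell class, MCDHFD left of ND, with open points for the libraries with filtered barcode lists and bars for mean ± SD (n = 3). Erythroid cells run from 36.2 to 63.2 CPM with MCDHFD and from 0 to 0.973 CPM with ND, while mono/mac cells and neutrophils have Acot1 in both diets.

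Acot1 also rose in 3 further classes. In mono/mac cells it had 25.5, 12.6 and 53.2 CPM with MCDHFD and 4.31, 4.62 and 3.78 CPM with ND. In neutrophils it had 45.9, 24.8 and 33.2 CPM with MCDHFD and 8.26, 10.2 and 5.29 CPM with ND. In B cells it had 2.60, 1.09 and 7.98 CPM with MCDHFD and 0.480, 1.17 and 0.133 CPM with ND. The diets did not overlap in mono/mac cells and neutrophils, and in B cells MCDHFD replicate 2 lay below ND replicate 2. Acot1 rose by 2.60 ± 0.39 in mono/mac cells, 1.94 ± 0.34 in neutrophils and 2.54 ± 0.47 in B cells (edgeR, Benjamini-Hochberg adjusted p = 0.032, 0.013 and 0.020). Among the unfiltered libraries the differences were 2.24, 2.38 and 2.59, and between the filtered ones 3.53, 1.70 and 2.78.

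Each of these 3 calls ended under some alternatives. The mono/mac call ended without any 1 library except MCDHFD replicate 2 (adjusted p of 0.0761 to 0.117) and in cells that met exactly 1 rule (0.134). The neutrophil call ended without ND replicate 1 (0.108) or ND replicate 3 (0.0908), and the B cell call without MCDHFD replicate 1 or any 1 ND library (0.0507 to 0.0806). In free RNA Acot1 made up 5.85 and 6.34 CPM in MCDHFD replicates 1 and 2, against 1.11 and 0.380 CPM in ND replicates 1 and 3. The B cell level lay below that of free RNA in the 4 libraries where both were measured, so expression in B cells was not shown, and the part of free RNA was not tested.

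Erythroid markers also moved with diet in neutrophils. The 8 erythroid markers summed there to 8596, 1134 and 2502 CPM with MCDHFD and 653, 31.4 and 37.7 CPM with ND, with no overlap and 1 of 4 tested markers called higher. In neutrophils that met no other rule they summed to 12609, 18.6 and 6757 CPM with MCDHFD and 829, 26.5 and 32.9 CPM with ND, so that MCDHFD replicate 2 lay below all ND libraries. Acot1 had 55.7, 34.5 and 53.5 CPM in those cells with MCDHFD and 11.1, 14.6 and 5.80 CPM with ND. Its log2 change there was 2.05 (edgeR, Benjamini-Hochberg adjusted p = 0.00041), beside 1.94 in all neutrophils. In mono/mac cells the erythroid markers overlapped between diets, at 1917, 1185 and 4666 CPM with MCDHFD and 1662, 4268 and 7251 CPM with ND. In mono/mac cells meeting no other rule they had 1463, 1385 and 10336 CPM with MCDHFD and 2821, 9653 and 11024.5 CPM with ND. Acot1 had 26.4, 11.6 and 74.7 CPM in those cells with MCDHFD and 6.99, 7.51 and 5.18 CPM with ND. Acot1 itself differed by diet in erythroid cells, so these marker sums cannot give the part of erythroid RNA. That part of Acot1 in mono/mac cells and neutrophils was not tested. The neutrophils' own 6 markers summed to 104671 to 143587 CPM with MCDHFD and 179305 to 225658 CPM with ND, with 2 called lower and 1 higher. The 6 mono/mac markers in neutrophils summed to 4027 to 4988 CPM with MCDHFD and 6663 to 9022 CPM with ND. Neither sum overlapped between diets, and the part of this shift in other neutrophil changes was not tested.

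In CD8 T cells, CD4 T cells, NK cells and DC Acot1 had too few UMIs for the diet test. CD8 T cells held 4, 3 and 42 UMIs with MCDHFD and 0, 0 and 0 with ND, which is at least 8.79-fold higher with the 3-count limit of 0 over the group. MCDHFD replicate 3 decided that limit: without it 7 UMIs remained and the limit was 1.66-fold. In CD8 T cells of that library the 8 erythroid markers summed to 508.5 CPM, beside 27.6 and 33.1 CPM in the other MCDHFD libraries and 25.4 to 33.003 CPM with ND. In the other MCDHFD libraries Acot1 stood at 0.456 and 0.348 CPM in CD8 T cells, below its level in free RNA. The part of erythroid or free RNA in these counts was not tested. The CD8 T count in cells that met no other rule was 0, 2 and 4 UMIs with MCDHFD and again 0 with ND. CD4 T cells held 2, 2 and 12 UMIs with MCDHFD and 0, 1 and 1 with ND, a ratio of 5.01 (1.18 to 44.9). In CD4 T cells that met no other rule the counts were 0, 0 and 2 with MCDHFD and 0, 1 and 1 with ND, so no difference was shown there. NK cells held 0, 0 and 1 with MCDHFD and none with ND, both under the limit. DC held 7, 31 and 13 UMIs with MCDHFD and 3, 3 and 0 with ND, a ratio of 7.00 (3.00 to 19.96). Of the 31 DC UMIs in MCDHFD replicate 2, 13 were in 1 cell. DC that met no other rule held 1, 5 and 1 UMIs with MCDHFD and 0, 1 and 0 with ND.

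The diet effect on Acot1 was larger in erythroid cells than in neutrophils by log2 5.78 ± 0.69, than in B cells by 5.48 ± 0.96 and than in mono/mac cells by 5.38 ± 0.83 (edgeR interaction test, Benjamini-Hochberg adjusted p = 0.019, 0.028 and 0.030). All genes called higher in erythroid cells made up 0.319%, 0.225% and 0.0956% of those tested in these comparisons. Against CD8 T cells the difference was 0.71 ± 0.94, against CD4 T cells 5.48 ± 2.12, against NK cells 3.35 ± 13.4 and against DC 4.69 ± 1.67, none past the test (adjusted p = 0.54 to 0.97, edgeR), in fits that called 0.0179%, 0.0624%, 0.208% and 0.0% of genes higher in erythroid cells. In those 4 classes Acot1 had at most 42 UMIs per library, which limits what these tests could detect. The 3 differences that passed were each lost without MCDHFD replicate 3, ND replicate 1 or ND replicate 2, at adjusted p of 0.0739 to 0.281 (edgeR), that against B cells also without MCDHFD replicate 1 (0.0550), and that against mono/mac cells also without MCDHFD replicate 2 (0.0534), in cells that met exactly 1 rule (0.235) and with upper-quartile normalization (0.0682). Among the 4 unfiltered libraries all 3 were lost (0.0833 to 0.145). Acot1 therefore passed 3 of the 7 comparisons that a rise in erythroid cells alone required.

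Since Acot1 is a known PPARalpha target in liver, hepatocyte markers were read in the same sums: the 4 together had 0.5 to 2.5 CPM with MCDHFD and 0 to 1.2 CPM with ND in erythroid cells, with 3 of the 4 at 0 in every library. The 4 adipocyte markers had 0 CPM with MCDHFD and 0 to 1.8 CPM with ND. The 6 pancreatic acinar markers were present in erythroid cells, at 71.6, 63.6 and 132.9 CPM with MCDHFD and 34.8 to 91.5 CPM with ND. In B cells these acinar markers had 215.9 CPM in MCDHFD replicate 3, beside 2.82 and 10.4 CPM in MCDHFD replicates 1 and 2 and 1.03 to 2.95 CPM with ND. The part of such RNA in the class values was not tested. Neutrophil and mono/mac cells also carried Acot1: in erythroid cells the 6 neutrophil markers summed to 45.8 to 132 CPM with MCDHFD and 12.6 to 1994 CPM with ND, and the 6 mono/mac markers to 139 to 295 CPM with MCDHFD and 118 to 298 CPM with ND, with none of either list called.

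Acot2, the mitochondrial thioesterase beside Acot1 on chromosome 12, was higher in erythroid cells without passing. It had 19.4, 15.0 and 32.8 CPM with MCDHFD and 5.49, 15.6 and 5.31 CPM with ND, so that MCDHFD replicate 2 lay below ND replicate 2. The estimate was 1.43 ± 0.30 (edgeR, Benjamini-Hochberg adjusted p = 0.11), and it was called in cells that met exactly 1 rule (1.98, adjusted p = 0.013). Its estimates in 6 other classes ran from -0.09 to 0.66, and no difference from erythroid cells passed (edgeR, adjusted p = 0.10 to 0.86). Acot1 (chr12:84009490-84018371) and Acot2 (chr12:83987861-83993873, both plus strand, mm10, GENCODE) are near-identical neighbours, so reads shared between the pair could be lost or misplaced in counting.

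**Figure D4:**
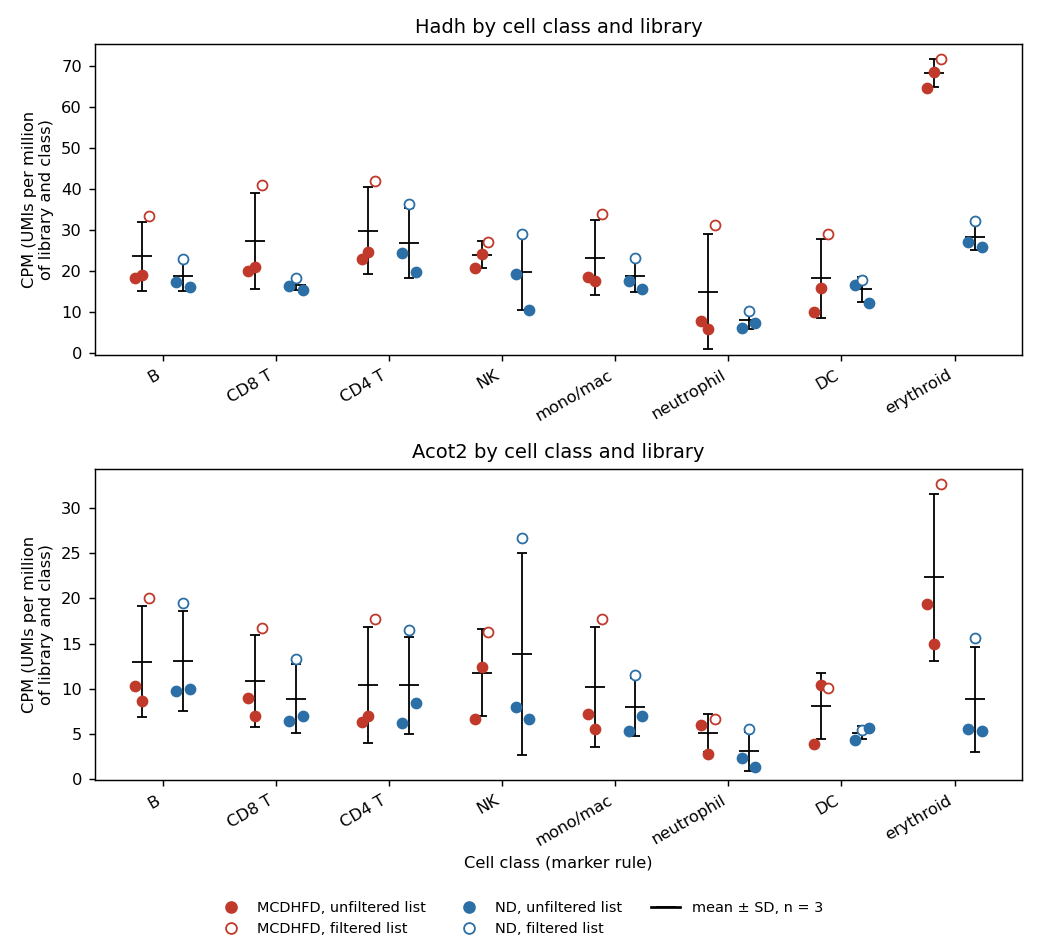
CPM of Hadh (top) and Acot2 (bottom) in each library by cell class, MCDHFD left of ND, with open points for the libraries with filtered barcode lists and bars for mean ± SD (n = 3). In erythroid cells Hadh stands at 64.6 to 71.6 CPM with MCDHFD and 25.7 to 32.1 CPM with ND, and Acot2 at 15.0 to 32.8 CPM with MCDHFD and 5.31 to 15.6 CPM with ND.

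**Figure D5:**
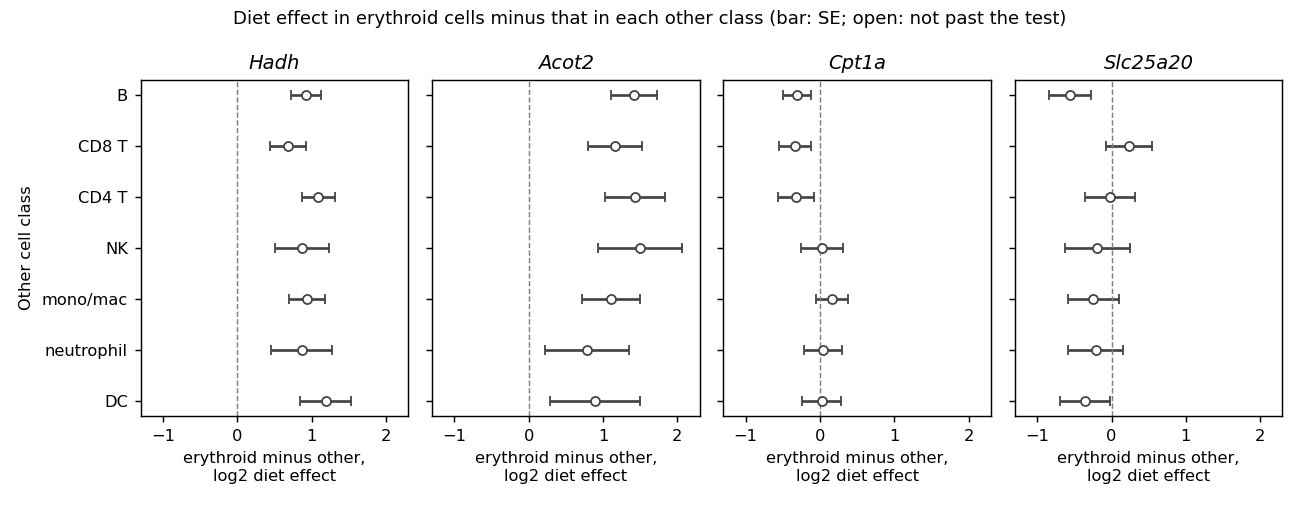
Diet effect in erythroid cells minus that in each other class (points, log2, with SE as bars) for Hadh, Acot2, Cpt1a and Slc25a20, with open points for differences that did not pass the test. All 28 points are open, those of Hadh and Acot2 all lie above 0 and those of Cpt1a lie between -0.34 and 0.16.

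Of the receptors, Ppara had too few UMIs for any test: 27 in all classes and libraries together, with 0, 0 and 1 in erythroid cells with MCDHFD and 0, 0 and 0 with ND. Ppard, the form found in most tissues, was measured in all classes and called in none, with estimates of -0.03 to 0.61. In NK cells it had 44.2, 32.5 and 32.5 CPM with MCDHFD and 28.8, 13.4 and 20.02 CPM with ND, without overlap but not past the test (edgeR, adjusted p = 0.20). In erythroid cells it had 15.1, 2.49 and 7.02 CPM with MCDHFD and 6.22, 5.84 and 9.80 CPM with ND, and the ranges overlapped. Pparg, the receptor known from fat cells and macrophages, was a mono/mac gene here, with 167, 145 and 46.5 CPM with MCDHFD and 214, 61.9 and 306 CPM with ND. The libraries with filtered lists were the lowest of each diet. Its estimate was -0.67 ± 0.17 in mono/mac cells and 0.72 ± 0.24 in B cells (edgeR, Benjamini-Hochberg adjusted p = 0.11 and 0.12). In B cells Pparg had 7.42, 4.49 and 2.58 CPM with MCDHFD and 2.88, 1.71 and 3.78 CPM with ND.

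Among the targets and fuel switches, Pdk4, the kinase that shuts pyruvate dehydrogenase and a widely used PPAR target, was near 0. It had 15 UMIs in all, 15 with MCDHFD and 0 with ND, of which 9 were in mono/mac cells and 5 in B cells of MCDHFD libraries. It had 0 UMIs in erythroid cells of all 6 libraries. Angptl4, a secreted inhibitor of lipoprotein lipase, had 7.54, 18.7 and 17.3 CPM in erythroid cells with MCDHFD and 15.7, 18.5 and 13.1 CPM with ND, and in mono/mac cells 10.9, 5.01 and 16.3 CPM with MCDHFD and 7.85, 3.23 and 5.04 CPM with ND. It was tested in 4 classes, with estimates of -0.42 to 0.77 and no call.

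Ucp2, a carrier of the inner mitochondrial membrane, was called by diet in no class. In B cells it had 157, 173 and 422 CPM in MCDHFD replicates 1 to 3, against 194, 509.8 and 191 CPM in ND replicates 1 to 3, with MCDHFD replicate 3 and ND replicate 2 the highest. In erythroid cells it had 319, 284 and 569.5 CPM with MCDHFD and 279.5, 462 and 345 CPM with ND, with the same libraries highest. List form itself was not tested. The estimates for diet were -0.31 to 0.47 (edgeR, smallest adjusted p = 0.082 in B cells). The highest, in neutrophils, came with differences of 0.74 among the unfiltered libraries and 0.47 between the filtered ones. Txnip, which restrains glucose uptake, had 213, 274 and 396 CPM in CD4 T cells with MCDHFD and 194, 214 and 192 CPM with ND. In erythroid cells it had 36.6, 46.1 and 39.8 CPM with MCDHFD and 59.3, 54.5 and 43.7 CPM with ND. The estimates ran from -0.42 in erythroid cells to 0.51 in CD4 T cells, where the adjusted p was smallest (edgeR, 0.069), and no class was called.

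Levels of the set were also compared between classes within each diet. With ND 19 of the 33 genes had their highest class mean in erythroid cells, 5 in mono/mac cells and 4 in neutrophils. With MCDHFD 20 had it in erythroid cells. The same count over all genes was not made, so these numbers do not show a trait of this set. Acadl averaged 126 CPM with MCDHFD and 119 CPM with ND in erythroid cells, Etfb 225 CPM with MCDHFD and 198 CPM with ND, and Hadh 68.3 ± 3.49 CPM with MCDHFD and 28.3 ± 3.37 CPM with ND (SD, n = 3 each). Acot1 was among the exceptions, since with ND its highest mean was 7.93 CPM in neutrophils. These levels are a description over 3 libraries per diet, and no test was made of them.

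Beyond the set, 2 lists of related genes were read the same way: 28 further oxidation genes and 23 further genes of PPAR biology. In erythroid cells none of 13 tested PPAR genes passed (edgeR; 3 had an unadjusted p under 0.05), beside 0.0979% of all genes higher and 0.0435% lower. DESeq2 called 0 there, with 1 gene lacking an adjusted p.

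Other PPAR genes passed outside erythroid cells: 3 of 17 in B cells (2.33% of all genes were higher there), 1 of 12 in CD4 T cells (1.05%), 1 of 17 in mono/mac cells (0.314%), 3 of 11 in neutrophils (3.39%) and 1 of 12 in DC (0.899%), all higher. None passed of 14 in CD8 T cells (0.477%) or 10 in NK cells (1.75%) in edgeR, where 5 and 1 had an unadjusted p under 0.05. DESeq2 called 0 in both, with no adjusted p for 9 genes in NK cells. Plin2, which coats lipid droplets, had 227, 251 and 162 CPM with MCDHFD and 79.5, 67.0 and 95.1 CPM with ND in mono/mac cells, with no overlap. Plin2 rose by 1.38 ± 0.14 there, 1.63 ± 0.18 in neutrophils and 1.17 ± 0.20 in DC (edgeR, Benjamini-Hochberg adjusted p = 0.0044, 0.0029 and 0.0066). The DC call ended in cells that met exactly 1 rule (0.57, adjusted p = 0.42, edgeR), at 60.5, 51.2 and 89.0 CPM with MCDHFD and 40.9, 63.3 and 31.1 CPM with ND, which overlap. The 6 mono/mac markers in DC summed to 701 to 1340 CPM with MCDHFD and 529 to 650.3 CPM with ND, with 1 called higher, and in DC that met no other rule to 336 to 482 CPM with MCDHFD and 496 to 579 CPM with ND. The part of mono/mac cells in the DC difference was not tested. The DC call also ended among the 4 unfiltered libraries (0.0510) and without ND replicate 1 (0.0708), and the neutrophil call without ND replicate 3 (0.0607). In erythroid cells it had 46.9, 38.6 and 27.6 CPM with MCDHFD and 59.3, 64.2 and 54.3 CPM with ND. The erythroid effect on Plin2 was lower than that in mono/mac cells by a difference of -2.12 ± 0.22 and than that in neutrophils by -2.27 ± 0.25 (edgeR interaction test, Benjamini-Hochberg adjusted p = 0.0076 and 0.014). Pdk1, another kinase of pyruvate dehydrogenase, rose in B cells (0.44), CD4 T cells (0.61) and neutrophils (1.42). It was the only gene of this list called in CD4 T cells, and whether PPARs control it was not tested. Its neutrophil call was kept in 8 of 14 alternatives, with 13.3, 15.1 and 39.9 CPM in MCDHFD replicates 1 to 3. The triglyceride lipase Pnpla2 rose in neutrophils by 0.89.

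The 2 other genes that passed in B cells were at low levels. Rxra, a partner of the PPARs, had 1.87 to 3.31 CPM with MCDHFD and 0.514 to 1.55 CPM with ND, a log2 change of 1.36. The call ended in B cells that met no other rule (adjusted p = 0.099, edgeR), at 0.731 to 0.872 CPM with MCDHFD and 0.159 to 0.876 CPM with ND, and without any 1 of 4 libraries (0.0881 to 0.136). The fatty acid binding protein Fabp4 had 1.14 to 2.82 CPM with MCDHFD and 0.171 to 0.699 CPM with ND in B cells, a log2 change of 2.499. That call ended without ND replicate 1 (adjusted p = 0.0835, edgeR) or ND replicate 3 (0.0570). In mono/mac cells it stood at 27.0 to 73.9 CPM with MCDHFD and 23.6 to 31.4 CPM with ND, and in free RNA at 10.6 and 16.9 CPM with MCDHFD and 1.66 and 3.23 CPM with ND. Per library 89 to 114 B cells with MCDHFD and 32 to 68 with ND also met the mono/mac rule. In B cells that met no other rule Fabp4 had 5, 11 and 4 UMIs with MCDHFD and 1, 1 and 0 UMIs with ND, too few for the test. Its B cell level lay below that of free RNA in the 4 libraries where both were measured, so expression in B cells was not shown.

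Of the further oxidation genes, those that passed were all lower: 2 of 24 in B cells, where 4.04% of all genes were lower, and 3 of 19 in neutrophils, where 4.92% were. With 2 genes, the B cell share (8.33%) is too coarse to be set apart from that of all genes. None of 17 to 22 passed in the 6 other classes (edgeR; 0 to 4 had an unadjusted p under 0.05), where 0.0435% to 2.6% of all genes were lower. DESeq2 called 0 in each of those 6, with no adjusted p for 16 genes in NK cells and 2 in erythroid cells. In neutrophils Scp2, a peroxisomal thiolase and lipid carrier, had 201, 206 and 193 CPM with MCDHFD and 379, 333 and 341 CPM with ND, and fell by 0.99 ± 0.16 (edgeR, Benjamini-Hochberg adjusted p = 0.011). Each MCDHFD library lay below each ND library. Acad11, an acyl-CoA dehydrogenase, fell by 2.19 in neutrophils, from few UMIs (14, 9 and 1 with MCDHFD and 83, 20 and 18 with ND). Mcee, of propionate metabolism, fell by 1.12 in neutrophils and by 0.50 in B cells. Hsd17b10, of branched-chain oxidation, fell by 0.45 in B cells. MCDHFD replicate 3 lay within the ND range in B cells for Hsd17b10 (44.2 CPM in 41.8 to 50.7 CPM) and for Mcee (17.9 CPM in 17.5 to 21.4 CPM). Each of these 2 B cell calls was kept in 10 of 15 alternatives.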

How the data were processed

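Droplet-based 3' RNA libraries of 6 spleen cell suspensions were analysed, 3 per diet. Per the submitters' processing notes the reads were processed with Cell Ranger 9.1.0 against mm10 and with Seurat 4.3.0, while per the file headers the matrices came from Cell Ranger 9.0.1 (4 libraries, unfiltered barcode lists) or 7.2.0 (2 libraries, filtered lists). The deposited values are UMI counts per gene and barcode, not normalized.

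Cells with at least 1000 UMIs and at most 10% of UMIs from the 13 mitochondrial genes were kept, and assigned by marker UMIs, with no clustering and no doublet caller. A cell meeting several rules entered each class, and cells meeting exactly 1 rule were an alternative. Counts were summed per library and class and tested with edgeR 4.0.16 (limma 3.58.1, R 4.3.3; TMM, filterByExpr, robust quasi-likelihood) on list form and diet, with Benjamini-Hochberg adjustment over all genes tested and a threshold of 0.05. Differences of diet effects between erythroid and another class were tested in 1 model with library as a term, for 7 pairs of classes. A standard error is the absolute log2 change over the square root of F. Thinned shares of cells are expectations under hypergeometric sampling, which replaced single random draws that were seen to vary. Ratios of counts have exact 95% intervals, and 3 counts stand for a count of 0. DESeq2 1.42.0 was an alternative. The others were scaling by the upper quartile, at least 2000 UMIs per cell, low counts left in, haemoglobin genes left out, diet alone, the 4 unfiltered libraries, the replicate block and each library left out. Python 3.11.15, numpy 2.4.6, pandas 2.3.3, scipy 1.17.1 and matplotlib 3.10.9 were used for sums, tables and figures.

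The tests were checked on simulated data. Where the simulated spread of each gene was as wide as estimated here, more unchanged genes were called than the threshold allows, most of all in the differences between classes, so calls near the threshold are uncertain. The members and gene lists were chosen with earlier results of these data known. Values per library were given for each member that passed in at least 1 class (in the class with its smallest p and in erythroid cells), for members above 0 in all 8 fits, and for Cpt1a, Slc25a20, Acot1, Acot2, the 3 receptors, Pdk4, Angptl4, Ucp2 and Txnip whatever their result. Other members were given by range and count, a few of them with the class of their smallest p, which were chosen after their values were seen. Of the 2 related lists, up to 4 genes per list and class that passed were named by smallest p. A result of 1 gene of the PPAR list is not reported here.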

Additional observations from a re-analysis of the deposited data

Results flagged for a closer look

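The diet effect on Acot1 differed between cell classes by the test of the difference itself. It was larger in erythroid cells by log2 5.48 than in B cells, by 5.38 than in mono/mac cells and by 5.78 than in neutrophils (edgeR interaction test, Benjamini-Hochberg adjusted p = 0.028, 0.030 and 0.019), with every MCDHFD erythroid library above every ND erythroid library. Against CD8 T cells (0.71 ± 0.94), CD4 T cells (5.48 ± 2.12), NK cells (3.35 ± 13.4) and DC (4.69 ± 1.67) the difference did not pass (adjusted p = 0.54 to 0.97). The 3 differences that passed were each lost among the 4 unfiltered libraries (adjusted p = 0.0833 to 0.145) and without MCDHFD replicate 3, ND replicate 1 or ND replicate 2 (0.0739 to 0.281). The B cell level of Acot1 lay below that of free RNA.

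Barcodes with fewer than 100 UMIs are not used in any comparison of cell classes. Both MCDHFD libraries lay above both ND libraries there in 15 of the 31 members with at least 10 UMIs. The 4 named here also had a mean at least 2-fold higher and at least 10 UMIs in all. Among all genes with at least 10 UMIs 46% were above in the same way, and 8.25% by at least 2-fold. The mean CPM of MCDHFD replicates 1 and 2 over that of ND replicates 1 and 3 was 8.19 for Acot1 (11 and 12 UMIs with MCDHFD and 6 and 2 UMIs with ND), 2.497 for Pparg, 2.46 for Slc25a20 and 2.38 for Cpt1a. The part of these molecules in the class values was not tested.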

How the results depend on the processing

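Across the alternatives for 32 single values, 344 kept their direction and side of the threshold, 124 kept the direction but lost the call, 6 gained one and none reversed. Of the 32 values 30 were calls, and the model with diet alone ended the most of them (28). The member counts of 4 in B cells, 2 in neutrophils and erythroid cells and 1 in each other class moved as follows, with the share of all genes called by the same fit in brackets. With diet alone they were 0 in B, CD8 T, CD4 T and NK cells, mono/mac cells, neutrophils and DC, and 1 in erythroid cells (at most 0.119%). In the 4 unfiltered libraries they were 10 in B cells (23.3%, against 6.38% with all 6), 2 in CD4 T cells (7.73%), 2 in NK cells (11.4%), 0 in mono/mac cells (0.436%), 3 in neutrophils (13.4%), 0 in DC (0.433%) and 1 in erythroid cells (0.0316%). With no filter on low counts they were 4 in CD8 T (2.42%), CD4 T (4.4%), mono/mac (5.21%) and erythroid cells (0.749%), 2 in NK cells (4.22%), 5 in neutrophils (9.32%) and 3 in DC (3.17%), with 1 gene, Cpt1a, in every class. DESeq2 gave 6 in B cells (8.58%), 2 in CD4 T cells (2.44%), 0 in NK cells (8.88%, where 22 members had no adjusted p), 3 in mono/mac cells (3.21%) and 0 in DC (1.32%). Cells meeting exactly 1 rule gave 6 in B cells (9.42%), 0 in NK cells (5.37%), mono/mac cells (0.956%) and DC (1.42%), 10 in neutrophils (28.4%, against 8.31% with all cells) and 3 in erythroid cells (0.302%). Leaving out 1 library gave 2 to 10 in B cells (1.21% to 22.8%), 1 to 3 in CD4 T cells (0.903% to 7.82%), 0 to 2 in NK cells (0.447% to 11.4%), 0 to 1 in mono/mac cells (0.32% to 1.62%) and DC (0.428% to 2.59%), 0 to 3 in neutrophils (0.155% to 13.2%) and 1 to 3 in erythroid cells (0.0308% to 0.306%). The cause of these moves was not tested.

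Same-numbered libraries correlated at 0.67, -0.76 and -0.73 in their deviations from the diet mean. The signs followed list form: pairs of like form had 0.63 to 0.82 and pairs of unlike form -0.78 to -0.70, whatever their numbers. These correlations therefore cannot show whether the numbers pair the libraries. With a replicate block the counts were 4 in B cells (10.4%), 2 in CD8 T cells (3.12%), 3 in CD4 T cells (6.1%), 1 in NK cells (5.39%), 4 in mono/mac cells (8.52%), 4 in neutrophils (12.1%), 2 in DC (3.99%) and 4 in erythroid cells (1.16%), with 1 gene, Cpt1a, in every class. The block was not run for differences between classes, where library is already a term. Erythroid cells numbered 25 to 67 per library, with 802111 to 2733434 UMIs in all.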
